A study of Mus musculus with 12 samples.

Results

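Primary granules, also called azurophil granules, are the first granules that a granulocyte makes, and 8 genes whose products fill, build or mark them were followed here: Mpo, Elane, Prtn3, Ctsg, Prss57, Ms4a3, Srgn and Calr. They were taken by gene symbol from a deposited table of 12199 genes, in which each of the 8 was found, and all 8 passed the filter on low counts. RNA had been sequenced from whole BM mononuclear cells of C57BL/6 mice in 11 libraries, of which 3 were WT, 3 DF, 3 TF and 2 TFD. TFD replicate 3 was not analyzed here. The study asked how heterozygous loss of the DNA methylation regulators Dnmt3a and Tet2, alone or together, acts with an Flt3 internal tandem duplication (ITD), which lies in the gene's own locus. The labels give DF as Dnmt3aFlox/+:MxCre /Flt3 ITD/+, TF as Tet2+/-/Flt3ITD/+ and TFD as Tet2+/-/Flt3ITD/+ Dnmt3aFlox/+; MxCre, and the controls as wild type. Mice of every genotype, WT included, had received the interferon inducer poly(I:C) at 8 to 10 weeks of age and were studied 8 to 9 weeks later. It switches on the Mx-Cre transgene in blood and in other interferon-responsive tissues. Nothing in the labels says more about the origin of the replicates than their numbers, so the spread between them is that between libraries of a genotype.

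In the promyelocyte, the precursor that follows the granulocyte-monocyte progenitor, myeloperoxidase and a family of serine proteases are made in the endoplasmic reticulum (ER), matured and packed onto the proteoglycan serglycin. Their genes are switched off again before the later granules are filled with lactoferrin, lipocalin and gelatinase, so that a mature neutrophil carries the primary granule proteins but little of their mRNA. In the marrow these transcripts therefore mark early granulocytes, and to a lesser degree early monocytes, under the control of C/EBP, PU.1, MYB and RUNX factors. Calr (calreticulin) is a chaperone of the ER in all cells that also binds the myeloperoxidase precursor, and Srgn (serglycin) is made by many blood cells, so neither is particular to this stage. In whole marrow, more cells of a type cannot be told apart from more RNA per cell.

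By the coordinates of the table (mm10), Prtn3 (chr10:79879667-79883172, plus strand) starts 6.645 kb before Elane (chr10:79886312-79888216, plus strand), and Prss57 (chr10:79781474-79788985, minus strand) starts 97.327 kb from the start of Elane and is read in the other direction. Srgn is also on chromosome 10 (chr10:62494428-62507755, minus strand), but far from the 3 proteases. Mpo lies at chr11:87793784-87804412 on the plus strand. On the minus strand lie Ctsg at chr14:56099881-56102574, Ms4a3 at chr19:11629499-11640851 and Calr at chr8:84842088-84846931. The table gives 14 exons for Mpo, 5 each for Elane, Prtn3, Ctsg and Prss57, 7 for Ms4a3, 3 for Srgn and 9 for Calr. Each value is the sum of reads over all exons of a gene. Prss57 shares 1157 exon bases, 43.0% of its exons, with Fstl3 on the other strand, so its values are uncertain wherever the counting did not use strand. Mpo shares 512 bases, 20.1% of its exons, with Gm11505, a GENCODE gene model on the other strand that was not among the overlapping genes of the table.

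Promoter windows from 250 bases before to 50 bases after the start site were found in RefSeq (GRCm38.p6) for 7 of the 8 genes. The windows of Mpo, Elane, Prtn3 and Ctsg are printed because these 4 granule enzymes were all higher in DF BM cells than in WT, and because Elane and Prtn3 are neighbors. They are written 5′ to 3′ on the strand of the gene. Capitals mark matches to AGGAAGT, a sequence bound by PU.1 and other ETS factors, and to CAACGG, a sequence bound by MYB, on either strand.

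Mpo (chr11:87793534-87793833, plus strand): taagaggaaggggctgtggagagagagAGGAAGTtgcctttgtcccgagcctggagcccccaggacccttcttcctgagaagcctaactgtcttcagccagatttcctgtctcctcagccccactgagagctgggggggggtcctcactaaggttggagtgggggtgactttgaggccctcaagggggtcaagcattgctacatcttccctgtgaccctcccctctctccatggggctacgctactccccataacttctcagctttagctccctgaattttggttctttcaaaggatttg

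Elane (chr10:79886062-79886361, plus strand): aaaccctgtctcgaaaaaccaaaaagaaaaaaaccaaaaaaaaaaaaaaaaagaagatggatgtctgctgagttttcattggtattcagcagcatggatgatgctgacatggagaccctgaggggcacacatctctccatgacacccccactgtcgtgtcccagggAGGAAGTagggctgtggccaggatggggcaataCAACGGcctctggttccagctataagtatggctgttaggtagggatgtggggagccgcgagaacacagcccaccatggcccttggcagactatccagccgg

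Prtn3 (chr10:79879417-79879716, plus strand): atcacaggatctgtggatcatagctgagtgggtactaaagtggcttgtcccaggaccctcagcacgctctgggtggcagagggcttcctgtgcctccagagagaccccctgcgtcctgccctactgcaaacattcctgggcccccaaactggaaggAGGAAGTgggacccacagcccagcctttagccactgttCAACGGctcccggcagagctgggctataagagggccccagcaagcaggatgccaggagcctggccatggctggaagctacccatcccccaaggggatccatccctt

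Ctsg (chr14:56102525-56102824, minus strand): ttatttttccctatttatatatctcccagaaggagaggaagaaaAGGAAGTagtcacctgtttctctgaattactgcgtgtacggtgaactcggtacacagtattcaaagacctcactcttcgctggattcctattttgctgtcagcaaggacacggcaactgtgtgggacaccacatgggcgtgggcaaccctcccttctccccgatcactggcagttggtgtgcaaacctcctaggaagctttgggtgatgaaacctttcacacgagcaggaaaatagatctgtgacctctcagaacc

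The ETS sequence was found in the windows of Mpo, 223 bases before the start, of Elane, 84 bases before, of Prtn3, 94 bases before, and of Ctsg, 206 bases before. The MYB sequence was found 51 bases before the start of Elane and 56 bases before that of Prtn3, so the neighboring genes carry both in the same order. Of all 32851 mouse promoter windows of this length, 9.35% held the ETS sequence and 5.12% the MYB sequence. A sequence bound by RUNX factors, TGTGGT, was found in the windows of Ctsg, 79 bases before the start, and Srgn, 202 bases before (16.8% of all windows). The fourth sequence, TTGCNNAA, bound by C/EBP factors, was found in that of Ms4a3, 41 bases after the start (10.8% of all windows). Both strands were searched, and no match overlapped another. The letters were chosen after the sequences had been seen, and a match is a description of the sequence.

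The libraries held between 8274153 and 15900904 counts over the genes of the table, so that counting error is small for these genes, which had between 220 (Prss57) and 59194 (Mpo) reads in a library. The targeted genes were not called lower in the genotypes that carry their mutant allele: on the log2 scale Tet2 differed from WT by 0.20 (TF) and 0.25 (TFD), and Dnmt3a by −0.15 (DF) and 0.29 (TFD), none past the test. These sums over exons include exons outside the deleted part. In the genotypes without that allele, Tet2 rose in DF (0.49, adjusted p = 0.0261) and Dnmt3a in TF (0.58, adjusted p = 0.0444), and Flt3 rose in all mutant genotypes (edgeR's quasi-likelihood test, adjusted p at most 0.0185). Xist reads numbered at least 10000 in WT replicate 3, TF replicate 3 and TFD replicate 2 and in no DF library. Levels of cell type markers differed between genotypes. The 12 monocyte markers summed to between 1699 and 1790 CPM (read counts scaled to a common library size) in WT and to between 5516 and 6855 CPM in the mutants. Of the 12, 10 were called higher in DF, 11 in TF and 10 in TFD. Among all genes, 21.0%, 19.0% and 14.7% were called higher in DF, TF and TFD, and 16.6%, 15.6% and 11.6% lower. All 10 B cell markers were called lower in each mutant genotype (6 without the 3 libraries with the most Xist), with sums of 538 to 699.7 CPM in WT and 15.2 to 82.5 CPM in the mutants, and some had a library without a read (3 of the 10 for DF, 1 for TF and 2 for TFD). The 9 erythroid markers summed to between 1592 and 2069 CPM in WT, 302 and 439 CPM in DF, 589.7 and 1617 CPM in TF and 565 and 702 CPM in TFD. The 9 eosinophil markers summed to between 300.2 and 393 CPM in WT and to between 225 and 682 CPM in the mutants. Of these 9, 2 were called higher and 2 lower in DF and in TF, and 0 higher and 2 lower in TFD. The 8 stem and progenitor markers summed to between 245 and 250.3 CPM in WT and to between 485 and 622 CPM in the mutants. They did not all rise: 5 were called higher and 2 lower in DF and in TFD, and 4 higher and 0 lower in TF. No marker of these lists lacked reads in every library of a genotype, and their part in the values of the granule genes was not tested.

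Per kilobase of exon (RPKM, reads per kilobase scaled to library size as CPM are), Mpo was the most abundant of the 8 genes in each genotype. In WT its level was 665 ± 45.1 RPKM (SD, n = 3), followed by Srgn with 567 ± 33.2, Elane with 537 ± 92.7, Prtn3 with 399 ± 25.9, Ctsg with 321 ± 14.3, Calr with 241 ± 53.1, Ms4a3 with 167 ± 9.42 and Prss57 with 13.2 ± 3.13 RPKM. The ranges of Srgn and Elane overlapped, and no other neighbors in this order did. In DF, TF and TFD, Srgn came after Mpo and the proteases Elane, Prtn3 and Ctsg, and the ranges of neighbors among the 3 proteases and Srgn overlapped. The DF levels ran from 1264 ± 169 RPKM for Mpo and 831 ± 246 for Prtn3 through 758 ± 80.4 for Elane, 755 ± 159.8 for Ctsg and 600.3 ± 58.8 for Srgn to 24.6 ± 4.24 RPKM for Prss57 (SD, n = 3). Among all genes of the table, Mpo was number 18 by mean CPM.

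**Figure D1:**
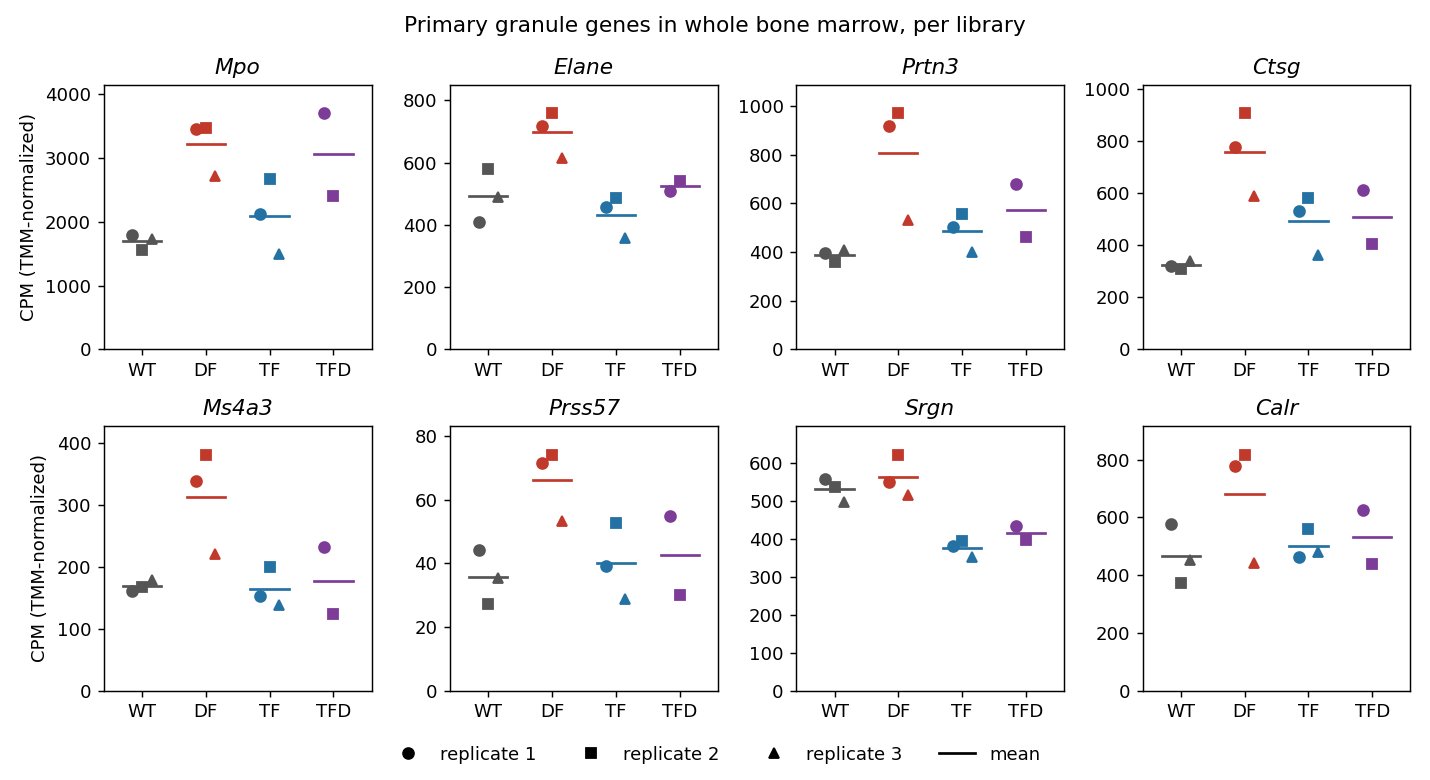
Level of each of the 8 genes in each library, in CPM scaled with TMM factors, with a linear axis from 0. Circles, squares and triangles are replicates 1, 2 and 3 of a genotype, and bars are genotype means. The 3 DF libraries lie above all 3 WT libraries for Mpo, Elane, Prtn3, Ctsg, Ms4a3 and Prss57, and the TF libraries lie below WT for Srgn.

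DF was compared with WT to ask what Dnmt3a loss with the ITD did to these transcripts. Of the 8 genes, 6 rose in DF: myeloperoxidase, the 4 serine proteases Elane, Prtn3, Ctsg and Prss57, and Ms4a3. The increase ranged from 1.41-fold for Elane to 2.35-fold for Ctsg. Srgn and Calr did not pass the test. Among all 12175 genes tested, 21.0% were called higher and 16.6% lower, so that 55.9% of the calls were higher, a share that scaling by library totals turned to 42.3%. The median log2 fold change was 0.89 over the 8 genes and 0.05 over all genes. The same 6 genes were those whose DF libraries all lay above WT, as did 28.8% of all genes.

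TF and TFD shared the WT libraries with that comparison. In TF, Ctsg rose and Srgn fell, and the other 6 genes did not pass the test; of all genes 19.0% were called higher and 15.6% lower. The median log2 fold change of the 8 genes was 0.14, against 0.02 over all genes. The TF libraries lay above WT for Ctsg (26.1% of all genes) and below WT for Srgn (22.9% of all genes). In TFD, Mpo and Ctsg rose, and 14.7% of all genes were called higher and 11.6% lower. The call on Ctsg in TF and both calls in TFD were lost when single libraries were left out, as given with each gene. Without the 3 libraries with at least 10000 Xist reads, 6 of the 8 genes were called in DF, 3 in TF and 3 in TFD, and 2 in DF versus TF, and of all genes 4393 were called in DF, 4241 in TF, 2531 in TFD and 529 in DF versus TF, against 4583, 4216, 3205 and 723 with all libraries. The median over the 8 genes in TFD was 0.22, against 0.01 over all genes. The TFD libraries lay above WT for Mpo, Prtn3 and Ctsg (26.0% of all genes) and below it for Srgn (23.5% of all genes).

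**Figure D2:**
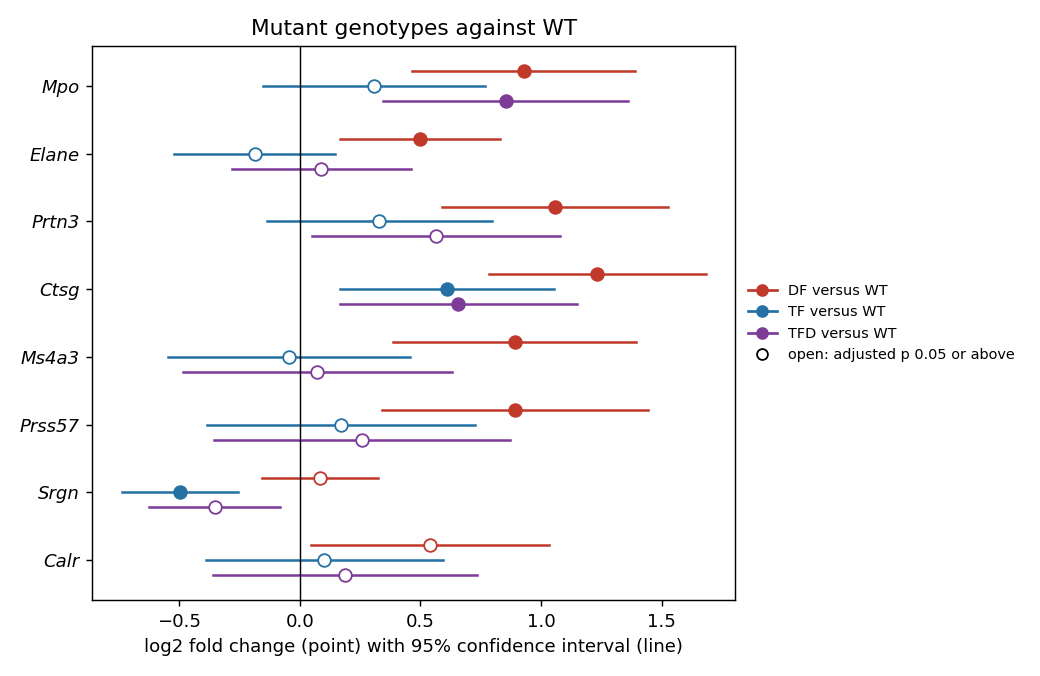
Log2 fold change of each gene in DF, TF and TFD versus WT, with the 95% confidence interval from edgeR's quasi-likelihood fit. Filled points passed an adjusted p of 0.05. In DF, 6 of the 8 genes are filled, from 0.50 for Elane to 1.23 for Ctsg, and in TF Srgn lies at −0.50.

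Between the mutant genotypes, all 8 genes had a positive log2 fold change in DF versus TF, and Elane, Ms4a3 and Srgn passed the test. Here 1.67% of all genes were called higher in DF and 4.27% lower, or 28.1% of the calls higher, which became 13.9% with library totals and 40.5% with a correction for gene length. The median log2 fold change was 0.66 over the 8 genes and 0.02 over all genes. For Mpo, Elane, Ctsg, Ms4a3, Prss57 and Srgn, every DF library lay above every TF library, as for 13.7% of all genes, although for Mpo, Ctsg and Prss57 the gap between the nearest libraries was small. DESeq2 called 6 of the 8 genes, adding Mpo, Prtn3 and Ctsg, and called more of all genes as well, 1072 against 723 for edgeR. The edgeR calls changed when single libraries were left out. Without DF replicate 2 (169 of all genes called) or without TF replicate 3 (339) none of the 8 passed edgeR's test in this comparison, without DF replicate 1 (385) 1 did, without DF replicate 3 (252) there were 4, and without TF replicate 2 (934) there were 5.

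None of the 8 genes was called in DF versus TFD by edgeR's quasi-likelihood test, which called 0 of all genes (0%). An unadjusted p under 0.05 was found for 5 of the 8 genes and for 1727 of all genes, and limma on log2 values called none of the 8. DESeq2 called 258 genes, with Srgn as the only one of the 8, at a log2 fold change of 0.41 (adjusted p = 0.028). All 8 log2 fold changes were positive, from 0.07 for Mpo (95% interval −0.44 to 0.59) to 0.82 for Ms4a3 (0.25 to 1.39). Without TFD replicate 1, Ms4a3 passed, at 1.35 (adjusted p = 0.032), in a fit that called 387 of all genes, while without TFD replicate 2 the value for Mpo turned to −0.23. The DF libraries lay above both TFD libraries for Elane and Srgn (15.0% of all genes). In TF versus TFD none of the 8 was called by edgeR, DESeq2 or limma, 1 had an unadjusted p under 0.05, as had 1068 of all 12175 genes, and edgeR called 0.0164% of all genes, a total of 2. All 8 values were negative, from −0.54 for Mpo (−1.05 to −0.04) to −0.05 for Ctsg (−0.54 to 0.45), and 5 of them, those of Prtn3, Ctsg, Ms4a3, Prss57 and Calr, turned without TFD replicate 1. The TF libraries lay below TFD for Elane and Srgn (10.3% of all genes).

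**Figure D3:**
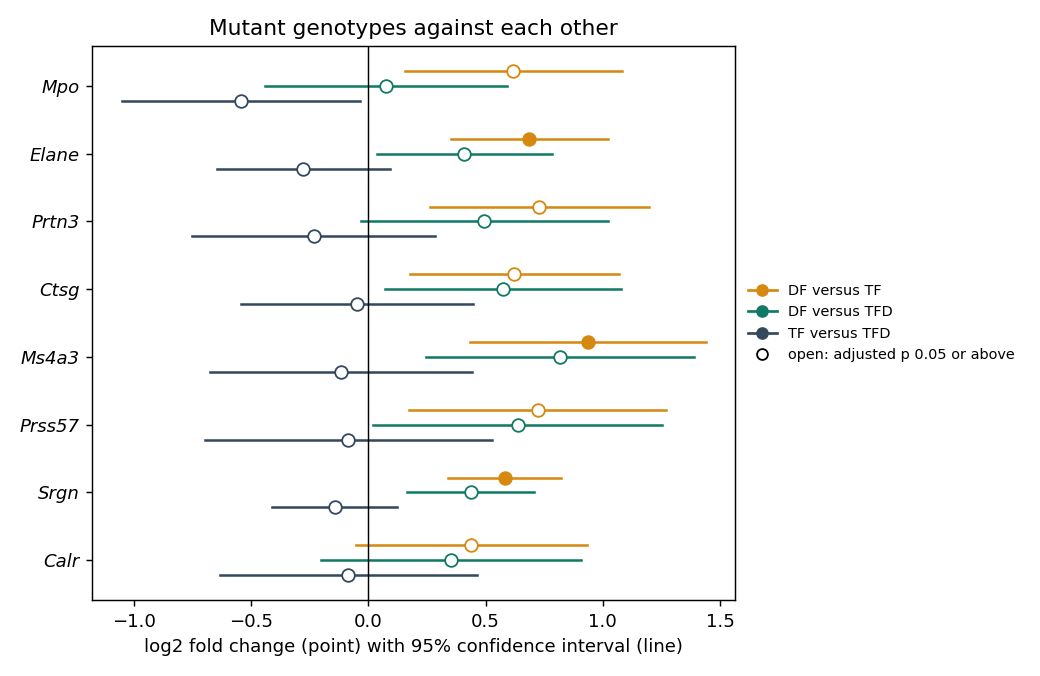
Log2 fold change of each gene between each pair of mutant genotypes (DF minus TF, DF minus TFD and TF minus TFD), with the 95% confidence interval from edgeR's quasi-likelihood fit. Filled points, which are Elane, Ms4a3 and Srgn in DF versus TF, passed an adjusted p of 0.05.

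Mpo encodes myeloperoxidase, the heme enzyme that makes hypochlorous acid and the most abundant protein of the primary granule. Its level was 1787, 1564 and 1725 CPM in WT replicates 1 to 3, 3460.4, 3475 and 2721 CPM in DF, 2121, 2670.3 and 1499 CPM in TF, and 3702 and 2412 CPM in TFD replicates 1 and 2. All DF and TFD libraries were above WT, whereas TF ranged from below the lowest WT library to well above the highest. The means were 1692 ± 115 CPM in WT and 3219 ± 431 CPM in DF (SD, n = 3 each). In DF, Mpo rose 1.9-fold, or 0.93 on the log2 scale (SE 0.21, adjusted p = 0.00493 in edgeR's quasi-likelihood test), and it was called in all 22 fits tried. In TFD it rose 1.81-fold (0.85, SE 0.23, adjusted p = 0.0176). This call was lost without TFD replicate 1 (0.51, adjusted p = 0.199) or WT replicate 2 (0.80, adjusted p = 0.0601). The value for TF was 0.31 (95% interval −0.15 to 0.77), which passed without the Xist-rich libraries (0.51, adjusted p = 0.048). DF exceeded TF by 0.62 (SE 0.21, adjusted p = 0.118), which did not pass, but passed without TF replicate 2 (0.83, adjusted p = 0.0419) and in DESeq2 (0.59, adjusted p = 0.0339).

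Elane encodes neutrophil elastase, a serine protease whose human mutations cause congenital neutropenia. It was measured at 410.4, 581 and 489.9 CPM in WT, 718, 759 and 615 CPM in DF, 458, 485 and 357 CPM in TF and 508 and 543 CPM in TFD. The DF libraries stood above all others, those of TFD fell within the range of WT, and TF reached below it. Elane rose in DF by 0.50 (SE 0.15, adjusted p = 0.0223), the smallest change of the 6 genes. That call depended on single libraries. It was lost without WT replicate 1 (0.35, adjusted p = 0.119), WT replicate 3 (adjusted p = 0.0769), DF replicate 1 (adjusted p = 0.0723) or DF replicate 2 (adjusted p = 0.086), and with a correction for gene length (0.33, adjusted p = 0.116). The log2 fold change was −0.19 in TF (−0.52 to 0.14) and 0.09 in TFD (−0.28 to 0.46), and neither passed. Against TF, Elane was 1.61-fold higher in DF (0.69, SE 0.15, adjusted p = 0.0227). That difference did not pass without DF replicate 1 (adjusted p = 0.0685), DF replicate 2 (adjusted p = 0.108) or TF replicate 3 (adjusted p = 0.087), or without the Xist-rich libraries (adjusted p = 0.0885).

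Prtn3 encodes proteinase 3, the closest relative of elastase and the autoantigen of a form of vasculitis. The WT libraries had 394, 359 and 408 CPM, the DF libraries 916, 969 and 533 CPM, the TF libraries 504, 557 and 398 CPM and the TFD libraries 681 and 463 CPM. DF replicate 3 was set apart from the other two DF libraries and lay within the range of TF, yet still above WT. Prtn3 rose in DF by 1.06 (SE 0.22, adjusted p = 0.00237), a 2.08-fold difference that was called in all 22 fits. In TFD, where both libraries exceeded WT, the value was 0.56 (SE 0.24, adjusted p = 0.0993). It passed edgeR's quasi-likelihood test without DF replicate 3 (adjusted p = 0.0375) or with only the groups compared (adjusted p = 0.0492). Without the Xist-rich libraries, which kept only replicate 1 of TFD, it was 0.85. In TF it was 0.33 (−0.14 to 0.80). DF versus TF gave 0.73 (SE 0.22, adjusted p = 0.068), which passed in DESeq2 (adjusted p = 0.0123), with a correction for gene length (adjusted p = 0.0267), and without DF replicate 3 (0.93, adjusted p = 0.0275) or TFD replicate 1 (adjusted p = 0.0496).

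Ctsg encodes cathepsin G, a chymotrypsin-like protease of the same granules. Its WT libraries were closely grouped at 319, 309 and 337 CPM, while DF had 777, 905 and 587 CPM, TF 532, 581 and 361 CPM and TFD 613 and 403 CPM. Every mutant library exceeded every WT library, and Ctsg was the one gene of the 8 that rose in all 3 mutant genotypes. In DF the change was 1.23 (SE 0.21, adjusted p = 0.000644), the largest of the 8 genes, and it was called in all 22 fits. The TF change was 0.61 (SE 0.21, adjusted p = 0.0359) and that of TFD 0.66 (SE 0.23, adjusted p = 0.0484), so both lay near the threshold. The TF call was lost without any single WT library (adjusted p from 0.0727 to 0.103), without TF replicate 1 (0.109) or TF replicate 2 (0.135), and with a correction for gene length (0.41, adjusted p = 0.0941). The TFD call held in 11 of 22 fits. Leaving out TFD replicate 1, which kept 1 TFD library, gave 0.32. In edgeR's quasi-likelihood test the call was lost without any single WT library, DF replicate 1 or 2, or TF replicate 1 (adjusted p from 0.0503 to 0.12). That test also lost it with library totals (0.0557), RLE factors (0.0536) and a block for the replicate number (0.113), as did limma (0.0585). DF exceeded TF by 0.62 (SE 0.21, adjusted p = 0.101).

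Prss57, a primary granule protease that cleaves after arginine, was the least abundant gene of the 8. It had 44.1, 27.2 and 35.4 CPM in WT, 71.4, 74.1 and 53.2 CPM in DF, 39.2, 52.5 and 28.8 CPM in TF and 54.9 and 30 CPM in TFD. DF lay above WT, and the TF and TFD libraries overlapped it. Prss57 rose in DF by 0.89 (SE 0.26, adjusted p = 0.0154). The call was lost without WT replicate 2 (adjusted p = 0.0686), WT replicate 3 (0.0566), DF replicate 1 (0.0565) or DF replicate 2 (0.0575). The values were 0.17 in TF (−0.38 to 0.73) and 0.26 in TFD (−0.36 to 0.87). Fstl3, with which it shares exon bases, differed between DF and WT by 0.61 (adjusted p = 0.141), and reads of the pair cannot be told apart without strand. DF versus TF gave 0.72 (SE 0.25, adjusted p = 0.125), and 0.96 (adjusted p = 0.0444) without TF replicate 2.

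Ms4a3, a membrane protein of the MS4A family whose expression marks granulocyte-monocyte progenitors, had 160.0, 167 and 179 CPM in WT and 337, 381 and 219.7 CPM in DF. In TF it had 153, 199.6 and 138 CPM and in TFD 231 and 123 CPM. DF lay above WT in all 3 libraries, TF surrounded WT, and the TFD libraries fell on either side of it. Ms4a3 rose in DF by 0.89 (SE 0.23, adjusted p = 0.00982) and was called in all 22 fits. The values in TF (−0.05, −0.55 to 0.46) and TFD (0.07, −0.49 to 0.63) were near 0, and each changed sign when single libraries were left out, the TFD value to −0.45 without TFD replicate 1. Ms4a3 was 1.91-fold higher in DF than in TF (0.94, SE 0.23, adjusted p = 0.0353). This call held in 13 of 22 fits. It was lost without any single WT library (adjusted p from 0.0538 to 0.0558), without DF replicate 1 (0.0997) or 2 (0.155), and without TF replicate 1 (0.0984) or 3 (0.113). In the same test, edgeR's quasi-likelihood test, library totals (0.0562) and a term for Xist (0.0532) also lost it.

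Srgn encodes the core protein of serglycin, whose sulfated chains hold elastase and other cationic proteases in the granule. Its levels were 559, 538 and 498 CPM in WT and 550.2, 624 and 516 CPM in DF, which overlapped. They were 381, 395 and 353 CPM in TF and 436 and 397 CPM in TFD, all below every WT and DF library. Srgn fell in TF by 0.50 on the log2 scale (SE 0.11, adjusted p = 0.00448), a 1.41-fold decrease that was called in all 22 fits. In TFD the value was −0.35 (SE 0.13, adjusted p = 0.0542). It passed in DESeq2 (−0.37, adjusted p = 0.00715) and limma (adjusted p = 0.0446). In edgeR's quasi-likelihood test it passed with RLE factors (adjusted p = 0.0447) and with a correction for gene length (adjusted p = 0.0322). There it also passed with a term for Xist (adjusted p = 0.046) and with a block for the replicate number (−0.40, adjusted p = 0.0414). The DF value of 0.08 (−0.16 to 0.32) turned to −0.08 with the length correction. DF exceeded TF by 0.58 (SE 0.11, adjusted p = 0.0114), a call lost without DF replicate 2 (adjusted p = 0.0753) or TF replicate 3 (adjusted p = 0.0504). Of the 7 tested markers of mast cells and basophils, which also make serglycin, 5 were called lower in TF (15.6% of all genes) and 1 in TFD (11.6%), and they summed to between 231 and 332 CPM in TF, 277 and 454 CPM in TFD, 383 and 539 CPM in DF and 547 and 793 CPM in WT. Without WT replicate 2 or TF replicate 1, 3 of the 7 were called in TF, and without TFD replicate 1, 3 were called in TFD. Their part in the level of Srgn was not tested.

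Calr stood at 577, 373 and 453 CPM in WT, 779, 818 and 443 CPM in DF, 464, 559 and 482 CPM in TF and 627 and 438 CPM in TFD. DF replicates 1 and 2 were above all other libraries, whereas DF replicate 3 fell within WT. The log2 fold change was 0.54 in DF (SE 0.23, adjusted p = 0.0786), 0.10 in TF (−0.39 to 0.59) and 0.19 in TFD (−0.36 to 0.73), and none passed. Without DF replicate 3, Calr passed in DF, at 0.74 (adjusted p = 0.0131). DF versus TF gave 0.44 (−0.05 to 0.93).

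The libraries of a genotype differed among themselves in the same way for nearly all of these genes. DF replicate 2 was highest and DF replicate 3 lowest among the DF libraries for 8 of the 8 genes. TF replicate 2 was highest for 8 and TF replicate 3 lowest for 7, and TFD replicate 2 was the lower of its pair for 7. In WT no replicate held more than 5 of the lowest values. Summed over the 8 genes, the level was 4251, 3919 and 4125 CPM in WT, 7610.2, 8005 and 5688 CPM in DF, 4651, 5499.9 and 3617 CPM in TF, and 6852 and 4809 CPM in TFD. Summed over the 20 later granule genes, the DF libraries had 68525, 70858 and 93383 CPM. Replicate 3, which was lowest for the primary granule genes, was thus highest for this sum. In TF and TFD, the replicate with the lowest sum for the 8 genes was also lowest for the later granule genes, at 41274 and 27491 CPM. The spread within genotypes was wide for 6 of the 8 genes: the SD of log2 CPM was 0.30 for Mpo, 0.33 for Prtn3, 0.31 for Ctsg, 0.36 for Ms4a3, 0.40 for Prss57 and 0.35 for Calr, at or above the 95.4 percentile of the 4711 genes whose mean log2 CPM was at least that of Prss57, the lowest of the 8. The median SD of those 4711 genes was 0.15. Elane, at 0.20, stood at the 78.9 percentile, and Srgn, at 0.10, at the 17.4 percentile.

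The ratio of Prtn3 to Elane, computed per length in each library, was 0.91, 0.586 and 0.79 in WT, 1.21, 1.21 and 0.821 in DF, 1.04, 1.09 and 1.06 in TF, and 1.27 and 0.81 in TFD. All TF libraries lay above all WT libraries, and the DF and TFD libraries overlapped WT. The ratio of Ctsg to Elane was 0.713, 0.489 and 0.632 in WT, 0.994, 1.1 and 0.876 in DF, 1.07, 1.1 and 0.929 in TF, and 1.11 and 0.682 in TFD, so that the DF and TF libraries all lay above WT. Over the 11 libraries, Pearson's r of log2 CPM was highest between Prtn3 and Ctsg (0.96) and was between 0.67 and 0.91 for the other pairs among Mpo, Elane, Prtn3 and Ctsg. The lowest values were those of Srgn with Ctsg (0.23) and Mpo (0.25). The points share their genotype, cell mix and library, so these values only describe how the genes varied. Among 11175 other genes, those whose log2 CPM was most like the mean of Mpo, Elane, Prtn3 and Ctsg over the 11 libraries were Gstm1, a glutathione transferase, P4hb, a protein disulfide isomerase of the ER, Ubxn8, a UBX-domain protein of the ER membrane, S100a1, a calcium-binding protein, and Prodh, a mitochondrial proline dehydrogenase, each with r = 0.95. Ranked by Spearman's rho, the first 5 were Ak4, Gstm1, Slc39a11, P2ry2 and Ufc1, of which only Gstm1 was also among the first 5 by Pearson's r.

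Most of the called genes in a wider list of genes tied to the primary granule were higher in the mutants. The list shares genes such as Ctsc, Serpinb1a and Slpi with that of processing and inhibitor genes below, so they count in both. Of 17 tested, 10 rose in DF, with a median log2 fold change of 0.68. In TF 9 rose and 2 fell (median 0.42), and in TFD 7 rose (median 0.51), beside 21.0%, 19.0% and 14.7% of all genes called higher and 15.6% called lower in TF. Cd68 and Ctsz, a lysosomal membrane protein and a cathepsin that macrophages share, rose most, with Cd68 at 1.25 in DF, 1.21 in TF and 0.99 in TFD and Ctsz at 1.01, 1.01 and 0.90. The 2 that fell in TF were Fcnb, a ficolin of granulocyte precursors (−1.49, SE 0.53, adjusted p = 0.0446), and Cd63, a tetraspanin of the granule membrane (−0.75, SE 0.15, adjusted p = 0.00225). Cd63 was also higher in DF than in TF (0.70, adjusted p = 0.0188). Without any single WT or DF library, or without TF replicate 1, 1 of the 17 was called lower in TF, and without TFD replicate 1, 3 were called lower in TFD. Several genes of this list are made by monocytes too, whose markers rose in each mutant genotype as given above.

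Genes that act on the granule proteases moved in both directions. Of the 14 tested processing and inhibitor genes, 5 rose and 3 fell in DF, 5 rose and 1 fell in TF, and 2 rose and 3 fell in TFD. Of all genes, 21.0%, 19.0% and 14.7% were called higher and 16.6%, 15.6% and 11.6% lower in these comparisons. Those that fell in DF numbered 1 without DF replicate 1 or 2. In TF the number that fell was 0 without WT replicate 2 or TF replicate 1 and 2 without TF replicate 3. In TFD, 1 rose without WT replicate 1, WT replicate 3 or TFD replicate 1, while 5 fell without TFD replicate 1 and 1 without TFD replicate 2. Ctsc, the peptidase that removes the activation dipeptide from Elane, Prtn3 and Ctsg, rose from 126 CPM in WT to 268 CPM in DF (1.08, SE 0.15, adjusted p = 0.00013), to 210.0 CPM in TF (0.73, adjusted p = 0.00213) and to 222 CPM in TFD (0.81, adjusted p = 0.00249). Serpinb1a, an inhibitor of these proteases, had 0.43 in DF (adjusted p = 0.0573), −0.23 in TF and −0.33 in TFD, and DF exceeded TF by 0.66 (SE 0.17, adjusted p = 0.0361). Slpi, a secreted inhibitor of elastase and cathepsin G, had 0.02, −0.43 and −0.50 and did not pass in any genotype. Cstb, a cytosolic cystatin, rose in DF (1.23), TF (0.85) and TFD (0.62). Stfa1 and BC100530 belong to a cluster of near-identical stefin genes, so their opposite values (1.33 and −1.31 in DF) are uncertain. Serpinb6b, an intracellular serpin, fell in DF (−1.83) and TFD (−1.48).

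**Figure D4:**
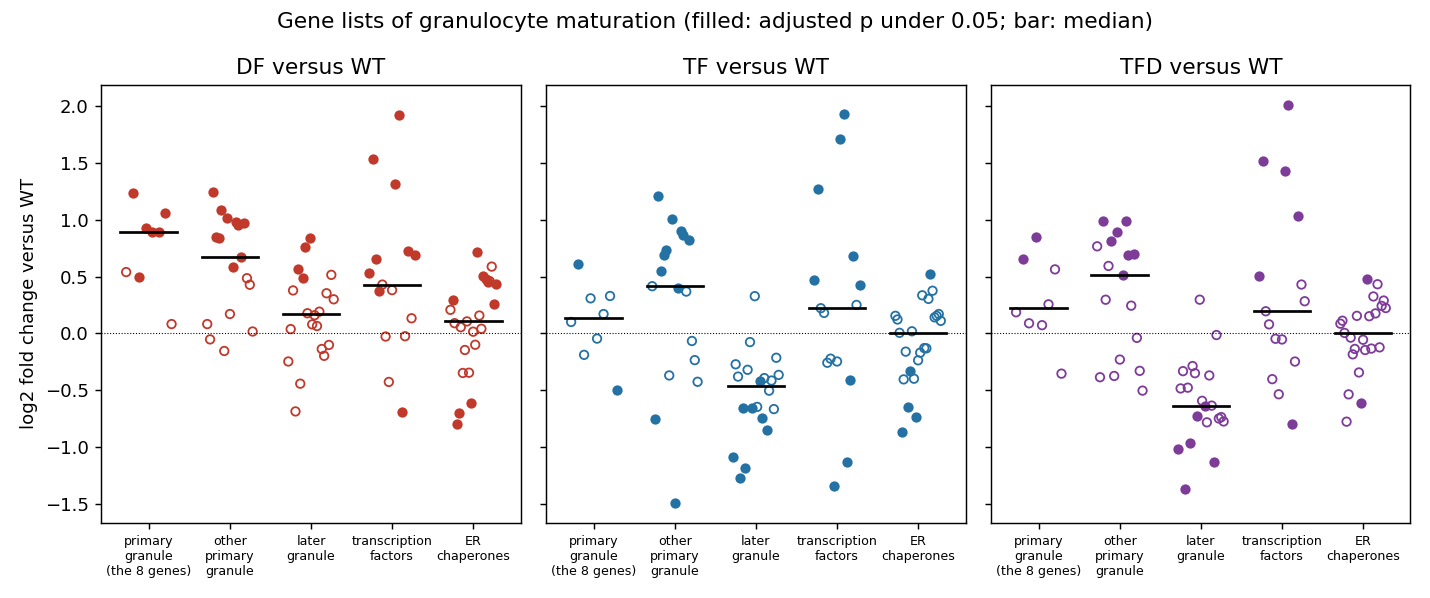
Log2 fold change versus WT of the 8 genes and of 4 lists of related genes in DF, TF and TFD, 1 point per gene. Filled points passed an adjusted p of 0.05 in edgeR's quasi-likelihood test and bars are list medians. The median of the 8 genes is 0.89 in DF, 0.14 in TF and 0.22 in TFD, and that of the later granule genes is 0.17, −0.46 and −0.63.

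The later granule genes were called in different directions. Of 20 tested, 4 rose in DF (median 0.17), 8 fell in TF (median −0.46) and 6 fell in TFD (median −0.63). The share that rose in DF was close to that of all genes (21.0% called higher), while 15.6% of all genes were called lower in TF and 11.6% in TFD. Of the 20, 6 were called higher in DF than in TF (1.67% of all genes), which were Abca13, Chil3, Hp, Lcn2, Mcemp1 and Padi4, named after their values were seen. These counts depended on single libraries. Without TFD replicate 2, 1 of the 20 was called lower in TFD, and without TFD replicate 1, 13 were. Those called in DF versus TF fell to 2 without DF replicate 2 or 3 or TF replicate 1 or 3 and to 3 without DF replicate 1, and rose to 10 without TFD replicate 1 or 2, while those that rose in DF numbered 2 without WT replicate 1 or DF replicate 2 or 3 and 1 without WT replicate 3. In TF, 4 were called lower without WT replicate 2, TF replicate 1 or TF replicate 3. Ltb4r1, a leukotriene receptor, was 0.84 in DF (adjusted p = 0.00743), 0.33 in TF and 0.30 in TFD, and Itgb2l, an integrin-like gene of neutrophils, 0.76 (adjusted p = 0.0367), −0.08 and −0.35. Cxcr2, the chemokine receptor of mature neutrophils, was −0.44 in DF, −1.18 in TF (adjusted p = 0.0013) and, for TFD, −0.96 (adjusted p = 0.0112), and Ceacam10 was −0.69, −1.27 and −1.37. The 8 mature neutrophil markers, 6 of which are also among the later granule genes, summed to between 34368 and 42435 CPM in WT and 42422 and 59198 CPM in DF. The sums were 26726 to 33480.4 CPM in TF and 13884 to 31296 CPM in TFD. None of the 8 was called higher in any mutant genotype. In DF 1 was called lower (median log2 fold change −0.02), in TF 4 (−0.68) and in TFD 2 (−0.76), beside 16.6%, 15.6% and 11.6% of all genes.

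Of 15 transcription factors of granulocytes and related blood cells, 8 rose and 1 fell in DF, 6 rose and 3 fell in TF, and 5 rose and 1 fell in TFD. The shares of all genes were 21.0% and 16.6%, 19.0% and 15.6%, and 14.7% and 11.6%. Klf4 and Irf8 are also among the monocyte markers, and Gata2 is among those of mast cells and basophils. The 1 that fell in DF, Klf5, was not called without WT replicate 2, DF replicate 1 or DF replicate 2, and in TFD none was called lower without WT replicate 1 or 2 and 2 were without TFD replicate 1. Cebpa, the C/EBP factor that opens the granulocyte-monocyte path, rose from 55.6 CPM in WT to 161 CPM in DF (1.53, SE 0.12, adjusted p = 5.89e-06), 134 CPM in TF (1.27) and 159.7 CPM in TFD (1.52). Spi1, which encodes PU.1, rose in DF (0.70, SE 0.15, adjusted p = 0.00311) and TF (0.43, adjusted p = 0.0404) and was 0.28 in TFD (adjusted p = 0.228). Myb, which is expressed in progenitors up to the promyelocyte, was −0.02 in DF, fell in TF by 0.41 on the log2 scale (adjusted p = 0.0328) and was −0.25 in TFD. Gfi1, a repressor needed for neutrophil formation, had 0.38, −0.25 and −0.05, and Cebpe, which drives the later granule program, had 0.43, −0.26 and −0.40, with no call. Runx1 had 0.13, 0.25 and 0.43, also with no call. Klf4 (1.93, 1.93 and 2.01) and Irf8 (1.31, 1.71 and 1.43), both factors of monocytes, rose most in each genotype along with Cebpa. Gata2, a factor of stem cells, mast cells and basophils, fell in TF (−1.35, adjusted p = 0.000294), and Klf5 fell in DF (−0.69), TF (−1.13) and TFD (−0.79).

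Genes of the ER, the compartment in which Calr acts, moved in both directions. The list holds chaperones and enzymes together with stress response factors such as Xbp1 and Atf4. Of 23 tested, 7 rose and 3 fell in DF (median 0.11), 1 rose and 4 fell in TF (median 0.01), and 1 rose and 1 fell in TFD (median 0.00). The shares of all genes were 21.0% and 16.6% in DF, 19.0% and 15.6% in TF, and 14.7% and 11.6% in TFD. Without WT replicate 2 or 3 or DF replicate 1 or 2, and with library totals, those that rose in DF numbered 3, and 4 without WT replicate 1. Without WT replicate 1 or 2 or TF replicate 1, those that fell in TF numbered 2, and 2 rose in TF without WT replicate 1 or TF replicate 3 and 3 without DF replicate 3. P4hb, the protein disulfide isomerase named above, rose in DF (0.72, SE 0.14, adjusted p = 0.00148) and TFD (0.48, adjusted p = 0.0339) and had 0.34 in TF (adjusted p = 0.0742). Hspa5 (BiP), the main Hsp70 chaperone of the ER, fell in DF (−0.61, SE 0.13, adjusted p = 0.00334), TF (−0.73, adjusted p = 0.00131) and TFD (−0.61, adjusted p = 0.00998). The membrane-bound partner of calreticulin, Canx, had 0.09 in DF, 0.01 in TF and 0.00 in TFD, and their oxidoreductase Pdia3 had 0.16, −0.13 and 0.15. Hsp90b1 had −0.35, −0.40 and −0.34, and none of these values passed. Prkcsh, a subunit of the glucosidase that trims glycans for calreticulin, rose in DF (0.45, adjusted p = 0.024), and Creld2 fell in DF (−0.80) and TF (−0.87).

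The enzymes that build and sulfate the glycosaminoglycan chains of serglycin were considered beside Srgn. Of 20 tested, 8 rose and 3 fell in DF, 4 rose and 5 fell in TF, and 5 rose and 4 fell in TFD, while of all genes 21.0% rose and 16.6% fell in DF, 19.0% and 15.6% in TF, and 14.7% and 11.6% in TFD. Without WT replicate 3, 3 rose in DF, and 5 without DF replicate 1, and those that fell numbered 1 without DF replicate 1 or 2. In TFD, 2 fell without TFD replicate 2. Papss2, which makes the sulfate donor, rose in DF by 1.37 (SE 0.10, adjusted p = 3.64e-06), in TF by 0.79 and in TFD by 1.27, and was higher in DF than in TF (0.58, adjusted p = 0.00615). Ust, a uronyl sulfotransferase, rose in TF (2.13) and TFD (1.87) and was 0.54 in DF. It was lower in DF than in TF (−1.59, adjusted p = 0.0119). Chst3, a chondroitin sulfotransferase, fell from 73.1 CPM in WT to 0.499 CPM in DF, 3.96 CPM in TF and 0.705 CPM in TFD, alongside the B cell markers given above, whose part in this change was not tested. Csgalnact1, which starts chondroitin chains, fell in TF (−1.65) and TFD (−1.21).

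Genes beside the granule genes were examined where their lower coordinates lay within 200 kb of each other, and distances are given between start sites. Around Prss57, Prtn3 and Elane, 23 other genes were tested, of which 8 rose in DF (median log2 fold change 0.30), 5 rose and 1 fell in TF (median 0.14), and 4 rose in TFD (median 0.07), beside 21.0%, 19.0% and 14.7% of all genes called higher and 15.6% called lower in TF. Lppr3, on the other strand before Prtn3, had the largest increase, reaching 1.80 in DF (SE 0.27, adjusted p = 0.000263), 1.42 in TF and 1.42 in TFD. Palm, whose start lies 4.587 kb from that of Prss57, rose in DF (0.81), TF (0.50) and TFD (0.52). Med16, a Mediator subunit that starts 22.626 kb from Elane, rose in DF (0.52) and TF (0.44), while R3hdm4, next to it, fell in TF (−0.37), and the splicing factor Ptbp1 had 0.02 in DF. On chromosome 14, Gzmb, a granzyme that starts 159.686 kb from Ctsg, rose in DF (1.28, SE 0.36, adjusted p = 0.0137) and was 0.33 in TF and 0.45 in TFD. The basophil protease Mcpt8, 17.377 kb away, had −0.20, −0.50 and −0.11 with no call.

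**Figure D5:**
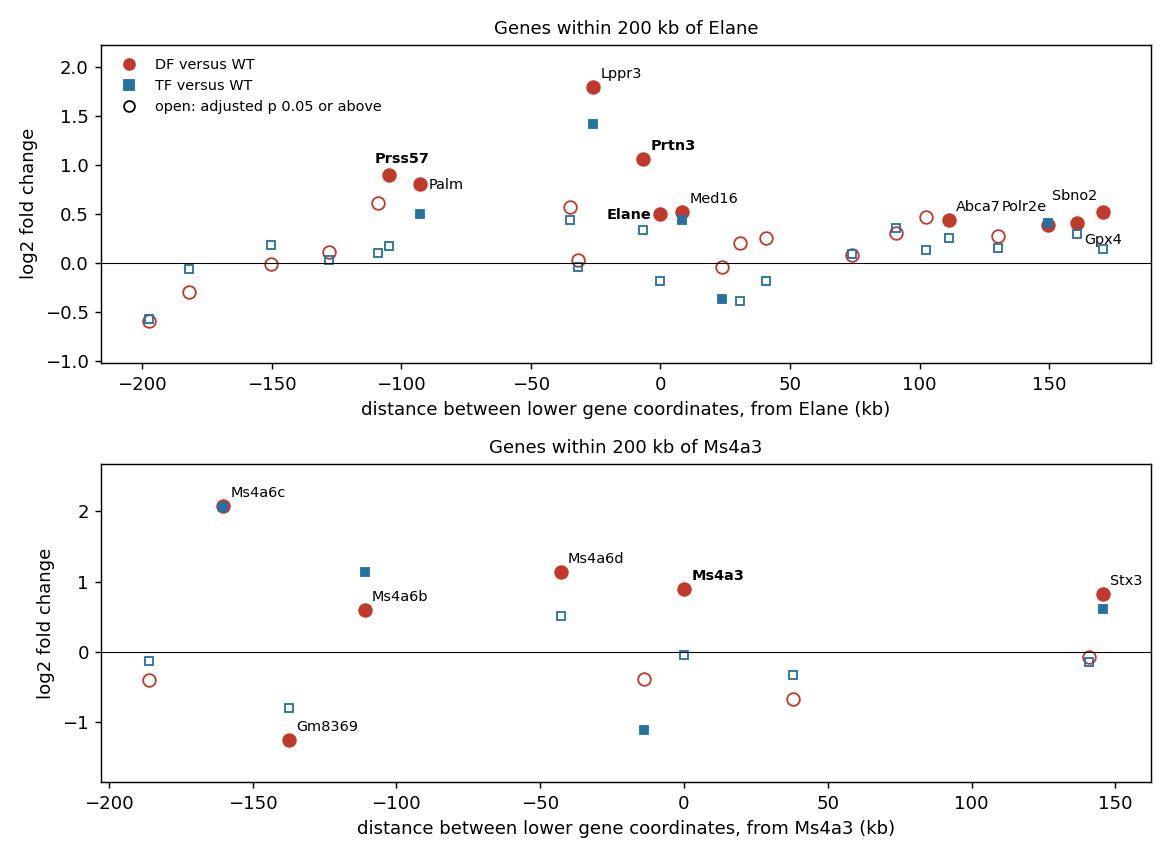
Log2 fold change in DF (circles) and TF (squares) versus WT of the tested genes whose lower coordinate lies within 200 kb of that of Elane or of Ms4a3, against that distance in kb. Filled symbols passed an adjusted p of 0.05, names are given for the granule genes and the genes called in DF, and the granule genes are in bold. The highest point around Elane is Lppr3 at 1.80 in DF, and Ms4a6c lies above Ms4a3 at 2.08.

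Around Ms4a3, 9 other genes were tested, of which 4 rose and 1 fell in DF (21.0% and 16.6% of all genes) and 3 rose and 1 fell in TF (19.0% and 15.6%). Ms4a6c, a family member of monocytes, rose by 2.08 in DF, 2.06 in TF and 1.86 in TFD, and Ms4a6b by 0.60, 1.14 and 0.53. Reads of the Ms4a6 genes can be shared among close copies, so the single values are uncertain. Ms4a2, the beta chain of the IgE receptor of mast cells and basophils, starts 17.132 kb from Ms4a3 and fell in TF (−1.11, adjusted p = 0.00282), with −0.39 in DF and −0.59 in TFD. Of 7 genes near Mpo, 2 rose in DF, 1 in TF and 2 in TFD (21.0%, 19.0% and 14.7% of all genes), and none fell. Mks1 rose in DF (0.97), TF (1.13) and TFD (1.16). Bzrap1 rose in DF (0.34) and TFD (0.55) and was −0.03 in TF. Epx, the peroxidase of eosinophils and a relative of Mpo that starts 81.752 kb from it, had −0.73 in DF, 0.16 in TF and −0.78 in TFD with no call. Of 20 genes near Calr, 2 rose and 2 fell in DF (21.0% and 16.6% of all genes), 2 rose and 1 fell in TF (19.0% and 15.6%), and 2 rose and 2 fell in TFD (14.7% and 11.6%). Those that rose in DF were Dnase2a, a lysosomal DNase (1.04, adjusted p = 8.94e-05), and Lyl1, a factor of blood progenitors (0.79, adjusted p = 0.000253), and those that fell there were Klf1, a factor of erythroid cells (−4.51, adjusted p = 6.81e-05), and Prdx2, a peroxiredoxin abundant in red cells (−1.45, adjusted p = 0.000282). Of 5 genes near Srgn, Ddx21 (−0.33, adjusted p = 0.0406) and Kif1bp (−0.39, adjusted p = 0.0447) fell in TF, where 15.6% of all genes were called lower.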

How the data were processed

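RNA from whole BM mononuclear cells had been depleted of globin RNA and made into stranded total RNA libraries. Per the submitters' processing notes and the study's methods, the authors used STAR with mm10 for alignment and featureCounts for read counts per gene. Versions, and whether counting used strand, are not given in the sources used here. The deposited table holds raw read counts per gene and, beside them, log2 CPM values that the authors scaled with TMM factors. These log2 values were matched by edgeR's cpm function (prior count 0.25) to within 4.99921e-09, so the CPM printed here are on the authors' scale. RPKM used the deposited gene lengths. Of 12 samples in the labels, 11 have a column.

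Counts were tested with edgeR's quasi-likelihood test (4.0.16, R 4.3.3) with TMM factors (0.924 to 1.04) in 1 fit of the 4 genotypes without covariates, keeping the 12175 genes with over 0.5 CPM in more than 3 libraries. This removed 24 genes and none of the 8. P-values were adjusted over all genes tested by Benjamini-Hochberg, each comparison on its own, and called under 0.05. Two-sided p-values measure the spread between these libraries. The pipeline was tested on simulated data. The alternatives were DESeq2 1.42.0, limma 3.58.1 on log2(CPM + 1), RLE factors, library totals, no filter, only the groups compared, a replicate block, a covariate that marks the libraries with 10000 Xist reads or more, a loess correction on gene length (span 0.3), and leaving out each library in turn. Leaving out the libraries with at least 10000 Xist reads was added after seeing the data.

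The 8 genes and all lists were chosen with earlier results of these data known. From each list of related genes, the text names the 2 with the highest and the 2 with the lowest mean log2 fold change versus WT, genes whose products act on the 8 genes, and tested genes within 200 kb of them. Likeness was Pearson's r of log2 CPM with the mean of Mpo, Elane, Prtn3 and Ctsg, over genes whose mean log2 CPM was 1 or more. Same-numbered libraries did not deviate together in all pairs, so the replicate number was not used to pair samples. Python 3.11.15, pandas 2.3.3, numpy 2.4.6 and matplotlib 3.10.9 were used for tables and figures.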

Additional observations from a re-analysis of the deposited data

How the results depend on the processing

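Of 1008 alternative values for the 8 genes, 915 kept their direction and side of the threshold, 43 lost a call, 22 gained one and 28 reversed, and each reversal was of a value that had not passed. The cause was not tested. With 1 WT, DF or TF library left out, 4 to 7 of the 8 genes were called in DF versus WT. The calls numbered 1 to 2 in TF versus WT, 0 to 3 in TFD versus WT and 0 to 5 in DF versus TF. None was called in DF versus TFD or TF versus TFD. Among all genes, those fits called 3413 to 4734 in DF versus WT, 2853 to 4295 in TF versus WT and 2444 to 3443 in TFD versus WT. They called 169 to 934 in DF versus TF, 0 to 226 in DF versus TFD and 2 to 26 in TF versus TFD. In DF versus WT the number of the 8 genes called became 5 with the length correction, which called 4382 of all genes. In TF versus WT it became 1 with the length correction (4041 of all genes) and 3 without the Xist libraries (4241). In TFD versus WT it became 1 with library totals (3128 of all genes). It became 3 with DESeq2 (3378), with only the groups compared (2818), with a term for Xist (3632) and with the length correction (3318). In DF versus TF it became 6 with DESeq2 (1072 of all genes) and 5 with the length correction (845). It became 2 with library totals (765), with a term for Xist (517) and without the Xist libraries (529). In DF versus TFD it became 1 with DESeq2 (258). By Spearman's rho, 1 of the 5 most similar genes was shared.

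Srgn in DF versus WT became −0.00175 with library totals, −0.076 with the length correction and −0.0031 without the Xist libraries. Mpo in DF versus TFD became −0.019 with library totals, −0.092 with a term for Xist and −0.24 without the Xist libraries. Ms4a3 in TF versus WT became 0.097 without the Xist libraries. When single libraries were left out, Srgn in DF versus WT ranged from −0.000611 to 0.11 and Mpo in DF versus TFD from −0.23 to 0.42. In TF versus WT the ranges were −0.21 to 0.061 for Ms4a3, −0.069 to 0.36 for Prss57 and −0.039 to 0.27 for Calr. In TFD versus WT they were −0.029 to 0.22 for Elane, −0.45 to 0.46 for Ms4a3, −0.25 to 0.63 for Prss57 and −0.10 to 0.43 for Calr. In TF versus TFD they were −0.50 to 0.070 for Prtn3, −0.33 to 0.29 for Ctsg, −0.51 to 0.41 for Ms4a3, −0.46 to 0.42 for Prss57 and −0.33 to 0.20 for Calr.

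The replicate numbers were not shown to pair the libraries, since over 15 pairs the deviations correlated at −0.30 to 0.25, with 3 pairs over 0.1. With the number as a block, 6, 2, 2, 3, 0 and 0 of the 8 genes were called in the 6 comparisons, in the order used above. Of all genes, 4492, 4165, 2722, 600, 42 and 2 were called. The 42 in DF versus TFD stand against 0 in the main fit. Under the block, Ms4a3 in TFD versus WT became −0.050, and Ctsg (0.051), Prss57 (0.058) and Calr (0.046) reversed in TF versus TFD. The 2 called in TFD versus WT under the block were Mpo and Srgn (−0.40, adjusted p = 0.0414), since Srgn was gained and Ctsg was lost (0.52, adjusted p = 0.113 in edgeR's quasi-likelihood test).

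The limits are 2 or 3 libraries per genotype, Xist-rich libraries in WT, TF and TFD but not DF, marrow of mixed cells, and counts whose strand setting is unknown. Leaving out 1 library moved the all-gene calls in DF versus TF from 723 to as few as 169, without DF replicate 2.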
